A study of Homo sapiens with 15 samples.

Results

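The genes described are 6 regulators of the cyclin-dependent kinases (CDKs) that act outside mitosis or are not confined to it: the D-type cyclins CCND2 and CCND3, the CDK inhibitor CDKN2C, the CDK phosphatase CDKN3, and the kinases CDK14 and CDK19. They were taken by gene name from 4 deposited tables of RNA sequencing results, and all 6 were found among the 4872 genes that appear in at least 1 table. The choice was made on measured values: each gene was picked because the authors' tables list it, so its level against the shared control is given as a description, with no test.

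D-type cyclins bind CDK4 and CDK6, and the active kinases phosphorylate the retinoblastoma protein, which releases E2F transcription factors and lets a cell pass from G1 into S phase. INK4 proteins such as the product of CDKN2C hold CDK4 and CDK6 apart from their cyclins, while CIP/KIP proteins such as p21 act on cyclin-CDK complexes. In senescent fibroblasts, which have stopped dividing, p21 and the INK4 protein p16 are known as the brakes that keep the retinoblastoma protein active. GW8510 is a kinase inhibitor known to act on CDKs, CDK2 among them, so the levels of these genes in treated cells are of interest beside those of younger cells.

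The 15 libraries came from WI-38, a human fetal lung fibroblast line with a limited number of divisions, in 5 groups of 3. The PD30 group (PD is read as population doublings; the labels speak of generations) received DMSO and the lipofection reagent lipo3000. The control group at PD45, described as senescent, received DMSO, lipo3000 and NC, read as a negative-control siRNA. Cells of the siSRC2 and siSRC4 groups, at PD45, received DMSO and lipo3000 with siSRC, read from the sample titles as separate siRNAs against the tyrosine kinase gene SRC. The GW8510 group, at PD45, received GW8510, lipo3000 and NC, and its labels name no DMSO. Passage cannot be told apart from NC in the PD30 comparison, nor the compound from the absence of DMSO in the GW8510 comparison. Dose and duration of GW8510 are not in the labels.

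Each table sets one group against the PD45 control and holds genes with an adjusted p under 0.05 and a fold change of at least 1.5. A gene outside a table was not analysed here and is not shown to be unchanged. The level is the authors' normalized signal, whose type (such as TPM or FPKM) and read depth are unknown, so levels are compared between groups and never between genes. SRC stood at 57.0% of the control with siSRC2 and 54.6% with siSRC4, with libraries from 9.51 to 11.77 against 18.95 to 20.47. Of 12 fibroblast markers 6 appear in a table, and none of 4 endothelial markers does. A listing shows a difference from the control and not which cell type was present. At PD30, 5 fibroblast markers were listed, 4 higher and 1 lower, with a summed signal of 6944 to 7550 against 4344 to 4520. With siSRC2 the fibroblast markers COL6A3 and COL3A1 were higher (1159 to 1369 against 669 to 743), and with GW8510 FAP and COL3A1 split 1 against 1 (208 to 259 against 159 to 168). Of other types, 3 of 5 epithelial markers (KRT8, KRT18 and KRT19) were listed lower at PD30, where their summed signal ran from 50.8 to 56.5 against 162 to 188 in the control. Of 6 smooth muscle and pericyte markers 3 were listed lower at PD30 (218 to 271 against 421 to 468), as was the blood marker HCLS1 (0.25 to 0.29 against 7.44 to 7.92). With GW8510 the epithelial marker KRT19 was higher (204 to 251 against 123 to 148), and with siSRC2 it was lower (72.3 to 75.1). The pericyte marker RGS5 was listed lower with GW8510 (2.68 to 3.94 against 7.58 to 11.08) and with siSRC4 (4.22 to 8.63). With GW8510 the summed signal of CD68 and HCLS1, 2 of 4 blood markers, was also lower (30.4 to 35.1 against 51.8 to 62.6). The part of these cell type markers in the results below was not tested. In bulk RNA, fewer cells in a state and less RNA per cell cannot be told apart.

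Of the 6 genes, 4 were listed at PD30, 4 under GW8510, 2 under siSRC2 and 0 under siSRC4. The authors listed 15.3% of the genes tested at PD30, 11.8% under GW8510, 2.64% under siSRC2 and 8.77% under siSRC4, and since the members were chosen from the tables nothing is read from their share. These 10 listings are described below by the roles of the genes. In all 10 the 3 libraries of the group did not overlap the 3 of the PD45 control, as in 93.6% of all genes listed at PD30, 90.6% under GW8510, 90.6% under siSRC2 and 88.8% under siSRC4.

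The D-type cyclin CCND2 was low in young cells and high in treated ones. Its signal was 3.21, 3.21 and 3.13 in the PD30 libraries, 15.05, 12.85 and 13.38 in the PD45 control, and 20.52, 20.84 and 19.45 with GW8510. The 3 groups stood apart from each other in every library, in the order GW8510, PD45 control, PD30. Mean signal was 3.18 ± 0.0462 (SD, n = 3) at PD30, 13.8 ± 1.15 in the control and 20.3 ± 0.728 with GW8510. PD30 cells thus held 4.32-fold less CCND2 transcript than the control, and GW8510-treated cells 1.47-fold more. GW8510-treated cells lay 6.37-fold above PD30 cells, further from them than the control was. That last direction follows from the gene being listed lower in one table and higher in the other, so nothing is read from its p in the direct fit (2.35 on the log2(signal + 1) scale, SE 0.10, limma, adjusted p = 5.43e-08).

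CCND3, the second D-type cyclin of the set, was listed for GW8510. Its signal was 215.77, 217.54 and 225.78 with the compound and 159.06, 147.23 and 141.03 in the control. All treated libraries lay above all control libraries, at a mean of 220 ± 5.34 against 149 ± 9.16 (SD, n = 3), a ratio of 1.47 like that of CCND2. The third D-type cyclin, CCND1, was listed lower for PD30, like CCND2, and for siSRC4. CCND1 signal was 490 ± 27.5 at PD30 and 578 ± 14.1 with siSRC4, against 983 ± 85.5 in the control. Both D-type cyclins listed for PD30, CCND1 and CCND2, were therefore lower in the younger cells, by 2.01-fold and 4.32-fold. Of their kinases, CDK4 was listed higher at PD30 (131 ± 5.66 against 85.1 ± 5.06) and CDK6 higher with siSRC2 (21.0 ± 1.28 against 12.6 ± 0.720).

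**Figure D1:**
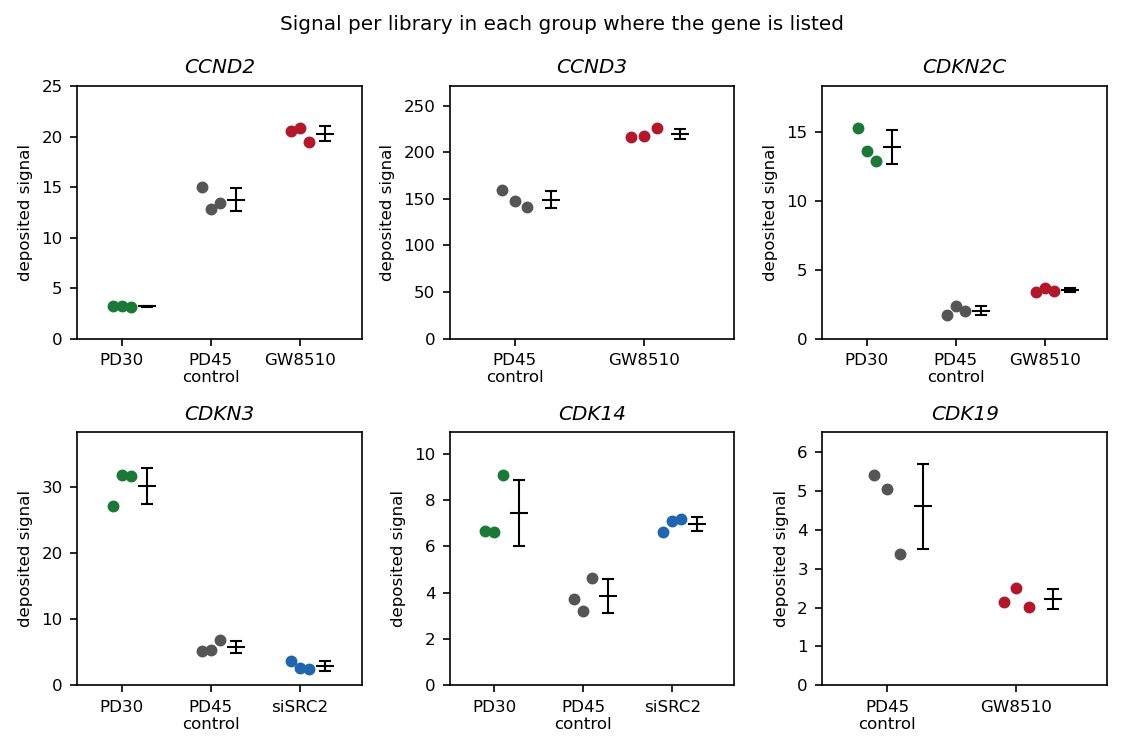
Deposited signal (linear axis from 0) of the 6 genes in each library, with a column of 3 points for each group in which the gene is listed and for the PD45 control; the black bar and whiskers are the mean and SD of 3 libraries. CCND2 runs from 3.18 at PD30 to 20.3 with GW8510, while CDKN2C stands at 13.9 at PD30 and 3.51 with GW8510.

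CDKN2C, the INK4 inhibitor of CDK4 and CDK6, was higher than the control in both the young and the treated cells. Its signal was 15.3, 13.6 and 12.92 at PD30, 3.4, 3.66 and 3.46 with GW8510, and 1.74, 2.33 and 2.03 in the PD45 control. No library of one group reached into another. Means were 13.9 ± 1.23, 3.51 ± 0.136 and 2.03 ± 0.295 (SD, n = 3), which is 6.86-fold the control at PD30 and 1.72-fold with GW8510. Whether treated cells reached the PD30 level is a comparison that uses no control library and whose direction the listings do not fix. The ratios to the shared control given above already imply its size. CDKN2C was also chosen from these same values, so its p below describes library spread and is not independent support. CDKN2C was lower with GW8510 than at PD30 by 1.73 on the log2(signal + 1) scale, with SE 0.11 (95% confidence interval -1.97 to -1.48, limma, adjusted p = 4.64e-07 over 512 genes in both tables). On signal itself the PD30 mean was 3.98-fold that of treated cells. In this fit 66.4% of the 512 genes passed, 24.4% as higher and 42% as lower with GW8510, and the median difference over the 512 was -0.17. By itself 3 against 3 libraries can give no two-sided exact permutation p under 0.1, which is the value here.

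Other CDK inhibitors went separate ways. CDKN2D, also an INK4 gene, was listed higher with GW8510 (14.4 ± 0.803 against 10.9 ± 1.51). CDKN2B, the p15 gene, was listed lower at PD30 (3.18 ± 0.724 against 4.61 ± 0.729, with libraries that overlapped) and higher with siSRC2 (7.66 ± 1.10). Of the CIP/KIP genes, CDKN1A, which encodes p21, was lower at PD30 at 703 ± 36.1 against 2154 ± 92.0. CDKN1C, which encodes p57, was higher there (4.36 ± 0.186 against 1.82 ± 0.467). CDKN2A, which encodes p16, and CDKN1B were in no table. The young cells therefore held more transcript of CDKN2C and CDKN1C and less of CDKN2B and CDKN1A.

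CDKN3, a phosphatase that removes the activating phosphate from CDK2 and CDK1, was high in young cells and lowest with siSRC2. Its signal was 27.08, 31.88 and 31.63 at PD30, 5.15, 5.25 and 6.83 in the PD45 control, and 3.7, 2.52 and 2.38 with siSRC2. Each group lay apart from the next, with the first siSRC2 library nearest to the control. Means were 30.2 ± 2.70, 5.74 ± 0.942 and 2.87 ± 0.725 (SD, n = 3), or 5.26-fold the control at PD30 and 49.9% of it with siSRC2. The span from PD30 to siSRC2 was 10.5-fold, the widest of highest to lowest mean among the 6 genes. As for CCND2, the direction from PD30 to siSRC2 follows from the listings, and nothing is read from its p in the direct fit (-3.02, SE 0.14, limma, adjusted p = 4.90e-09). CKS2, a small CDK-binding protein of the same list as CDKN3, was also listed higher at PD30 and lower with siSRC2. Unlike CDKN3, CKS2 was listed lower with siSRC4 too. Like most of the 11 genes of that list, CDKN3 was not listed for GW8510, which does not show it unchanged. The 4 that were listed were all higher, beside 4.59% of genes tested listed higher and 7.26% lower.

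CDKN2C and CDKN3 both rose together with dividing-cell genes at PD30, so their start regions are shown. The windows hold 250 bases before and 50 from the annotated start, as RefSeq gives them (build GRCh38.p14). They were searched on both strands for the CHR element TTTGAA, for the CCAAT box, and for the E2F words TTTCCCGC, TTTCGCGC, TTTGGCGC and TTTGCCGC. The CHR element is known from promoters that are repressed in resting cells, and the E2F words from promoters active at the entry into S phase. Of 35116 windows of this length, 15.2% hold the CHR word, 34.6% a CCAAT box and 3.31% an E2F word. The 6 genes have 12 such windows for 5 of them, and CCND2 has no entry. For CDKN2C, which has 3 starts, the window with most matches is given. Capitals mark the matches.
CDKN2C, chr1:50969995-50970294, plus strand: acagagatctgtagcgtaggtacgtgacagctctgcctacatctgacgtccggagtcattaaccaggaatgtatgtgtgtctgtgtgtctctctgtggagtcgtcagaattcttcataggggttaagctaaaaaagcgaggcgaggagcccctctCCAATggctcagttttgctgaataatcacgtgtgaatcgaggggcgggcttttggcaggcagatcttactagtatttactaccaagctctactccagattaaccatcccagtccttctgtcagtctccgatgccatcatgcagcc
CDKN3, chr14:54396757-54397056, plus strand: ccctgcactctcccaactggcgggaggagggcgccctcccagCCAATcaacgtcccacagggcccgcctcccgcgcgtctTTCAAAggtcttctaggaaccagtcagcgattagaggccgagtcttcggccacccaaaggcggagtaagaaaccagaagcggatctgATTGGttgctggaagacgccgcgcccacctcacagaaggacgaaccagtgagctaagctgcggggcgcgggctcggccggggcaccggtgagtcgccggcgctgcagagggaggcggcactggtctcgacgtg
The CDKN3 window holds a CHR word that begins 170 bases upstream of the start, between CCAAT boxes that begin 208 and 83 bases upstream. In the CDKN2C window there is 1 CCAAT box, 95 bases upstream, and no CHR or E2F word. Among the other windows, 2 of the 3 of CCND3 held a CCAAT box, 64 and 136 bases upstream, and 1 of the 3 of CDK19 held an E2F word, a CHR word and 3 CCAAT boxes, and neither CCND3 nor CDK19 was listed for PD30. The windows of CDK14, which was listed higher at PD30, and the remaining windows of CDKN2C held no match. A match is a stretch of letters and was not tested for binding.

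CDK14, a kinase that pairs with cyclin Y at the cell membrane and is known from Wnt receptor phosphorylation, was higher in young cells and with siSRC2. Its signal was 6.64, 6.6 and 9.1 at PD30, 6.6, 7.1 and 7.19 with siSRC2, and 3.73, 3.19 and 4.63 in the PD45 control. Both groups cleared every control library and overlapped each other, with 1 PD30 library above the rest. Means were 7.45 ± 1.43, 6.96 ± 0.318 and 3.85 ± 0.727 (SD, n = 3), or 1.93-fold and 1.81-fold the control. Between siSRC2 and PD30 no difference was called: the value was -0.07 on the log2(signal + 1) scale with SE 0.13 (limma, adjusted p = 0.695 over 143 genes in both tables, of which 62.9% passed, 31.5% in each direction). The 95% confidence interval, on the scale of signal + 1, ran from 0.776 to 1.17 of the PD30 level. The exact permutation p was 0.9. PD30 and siSRC2 are neighbours in the order of CDK14 levels, with libraries that overlapped. Both passed the same filter against the same control, which favours close levels, so nothing further is read from the absence of a call.

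Of the 11 genes in the list of CDK14, CDK5 and their relatives and partners, 3 were listed with siSRC2: CDK14 higher, and CDK15 and CCNYL1 lower. The background for siSRC2 was 1.38% listed higher and 1.26% lower. CDK14 is among the 3 because it was chosen for being listed, so nothing is read from the share. CDK15, its closest relative among the kinases, stood at 8.77 ± 0.906 against 13.7 ± 3.22, and was also listed lower with GW8510, at 4.88 ± 0.350. CCNYL1, a cyclin Y-like gene, was listed lower with both siRNAs (9.93 ± 1.26 with siSRC2 and 7.86 ± 1.32 with siSRC4 against 14.9 ± 0.843). The cyclin Y gene CCNY itself and the kinases CDK16, CDK17 and CDK18 were in no table.

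CDK19, the relative of CDK8 that serves with cyclin C as the kinase of the Mediator complex, was the 1 member listed lower with GW8510. Its signal was 2.15, 2.51 and 2.02 with the compound and 5.43, 5.05 and 3.37 in the control. The treated libraries lay close together and below a control that spread widely and had 1 library lower than its others. Mean signal was 2.23 ± 0.254 against 4.62 ± 1.10 (SD, n = 3), a 2.07-fold lower level. Without that control library the log2 ratio went from -1.05 to -1.23. CDK8, MED12 and MED13 were in no table, and cyclin C (CCNC) was listed lower with siSRC4 (15.8 ± 3.11 against 21.9 ± 2.41). Among other kinases of transcription, CDK9, the kinase of the elongation factor P-TEFb, was listed higher with GW8510 at 48.2 ± 5.54 against 38.0 ± 4.0, with libraries that overlapped. CDK7 and MNAT1, both of the CDK-activating kinase, were listed lower with siSRC4 (56.2 ± 14.2 against 87.1 ± 9.40 and 22.1 ± 5.12 against 32.5 ± 3.0).

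Around the 6 genes, 90 cell cycle and CDK genes in 12 lists were counted, the 6 included, and 47 of them appeared in a table. For PD30, 33 were listed, 26 higher and 7 lower, with a median log2 ratio of 1.09 beside 0.59 for all genes listed; the authors listed 8.24% of genes tested as higher and 7.07% as lower. Without the 6 genes, which were chosen for being listed, it was 29 of 84 (34.5%), 23 higher and 6 lower. The list of CDK1, its cyclins and its phosphorylation had 9 of 11 listed, all higher, among them CDC25C, a phosphatase that activates CDK1 (4.59 ± 0.551 against 0.497 ± 0.203), and CCNB2, a mitotic cyclin (40.8 ± 3.0 against 4.95 ± 0.657). For CDK2 and its cyclins E and A, 4 of 6 were listed, all higher. CDK2 itself, a known target of GW8510, stood at 43.4 ± 2.01 at PD30 against 23.5 ± 2.01 in the control, and it was not listed for GW8510. The RB and E2F list split with 5 higher and 2 lower, and E2F1 was higher at 6.54 ± 0.719 against 2.87 ± 0.0794.

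With GW8510, 17 of the 90 were listed, 13 higher and 4 lower, with a median log2 ratio of 0.56 beside -0.72 for all genes listed. The background was 4.59% of genes tested listed higher and 7.26% lower. Without the 6 genes it was 13 of 84 (15.5%), 10 higher and 3 lower, with a median of 0.49, and this share is near the 11.8% of all genes tested. PKMYT1, a kinase that holds CDK1 inactive, had the largest ratio among these 13 at 6.45 ± 1.90 against 1.96 ± 0.517, and E2F1 was higher at 4.91 ± 0.487. No gene of the CDK2 list and no CIP/KIP gene was listed. E2F7, a repressor among the E2F genes, was lower both with GW8510 (1.56 ± 0.0656) and at PD30 (1.77 ± 0.184) than in the control (3.06 ± 0.539). With siSRC2, 7 were listed, 3 higher and 4 lower (background 1.38% and 1.26%), with a median log2 ratio of -0.57 beside 0.44 for all genes listed. Without the 6 genes it was 5 of 84 (5.95%), 2 higher and 3 lower. With siSRC4, 9 were listed, 1 higher and 8 lower (background 3.91% and 4.86%), with medians of -0.63 and -0.54. Without the 6 genes it was 9 of 84 (10.7%), and this share is near the 8.77% of all genes tested for siSRC4. SKP2, which targets p27 for destruction, was lower there at 3.56 ± 0.234 against 7.23 ± 0.745. All 4 comparisons share the control libraries. Listed genes passed a 1.5-fold filter on either side, so the sign of such a median mainly shows which direction holds more genes. Over all genes listed with GW8510, the median log2 ratio was 0.68 for those higher and -0.89 for those lower.

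**Figure D2:**
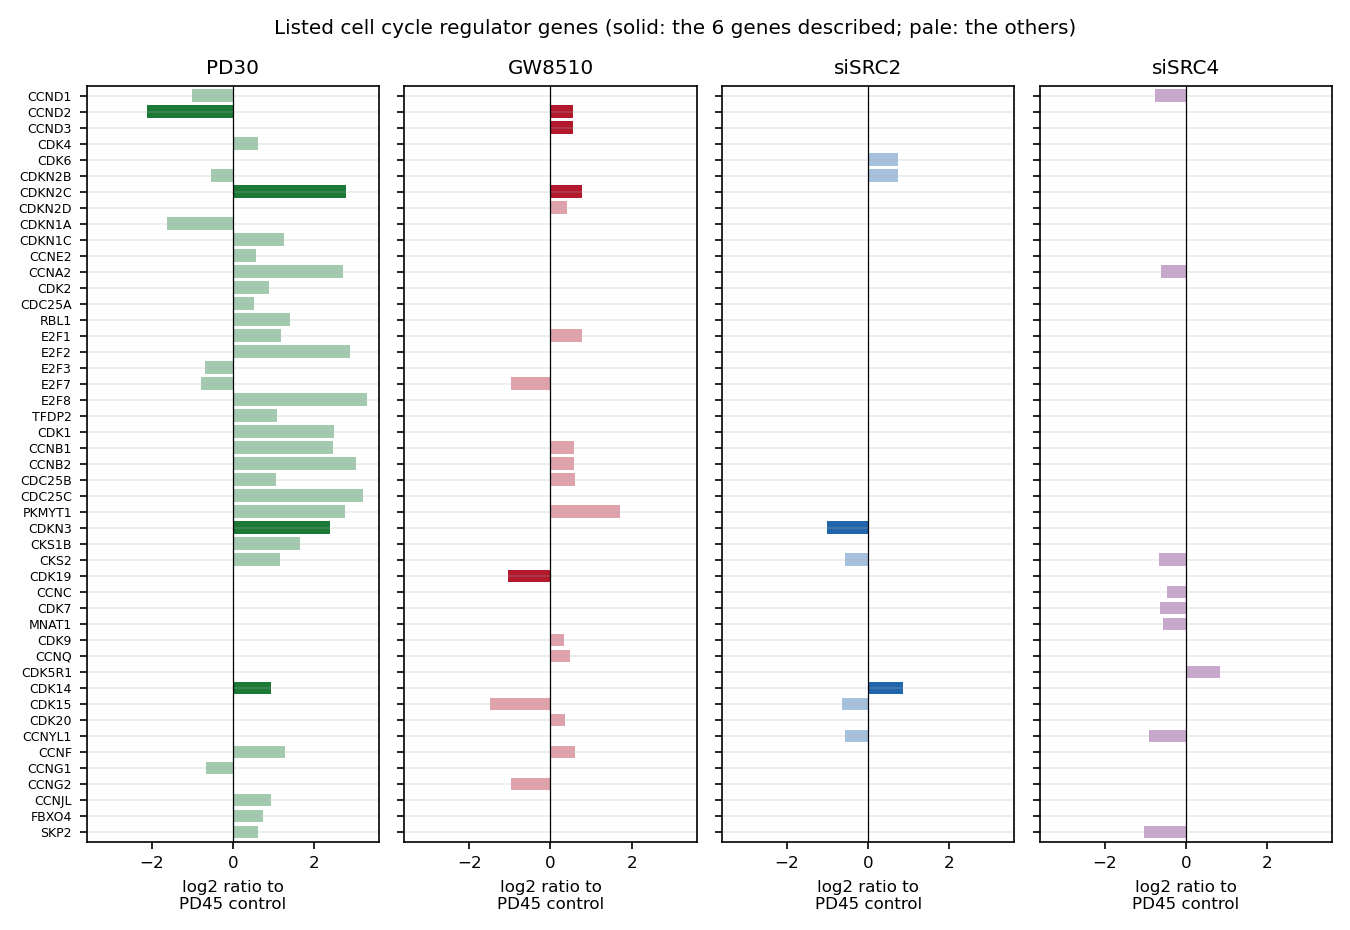
Log2 ratio of mean signal to the PD45 control (horizontal axis) for the 47 cell cycle and CDK genes that appear in a table, 1 panel for each comparison; a missing bar means that the gene was not listed there, and solid bars are the 6 genes. The PD30 panel holds 26 bars to the right and 7 to the left, and CCND2 points left for PD30 and right for GW8510.

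The authors' deposited table gives fold changes that differ from the ratios of mean signals. For GW8510 the log2 ratio of signals lay below the authors' log2 fold change by 0.12 in the median of listed genes, a shift that was 0.02 for PD30, and above it by 0.05 for siSRC2. In the authors' deposited table CCND2 and CCND3 were 1.67-fold and 1.63-fold higher with GW8510, where the signals gave 1.47 for both, and CDKN2C was 2.03-fold higher. For CDK19 the same deposited table by the authors gave a 1.81-fold lower level. All 10 listings kept their direction on both scales. Relative to the shift of 0.12, the rises with GW8510 are larger and the fall of CDK19 smaller.

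**Figure D3:**
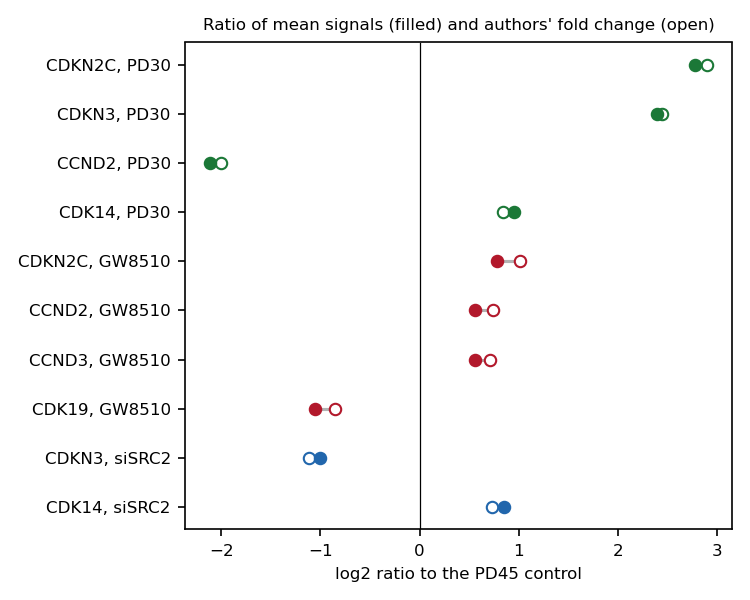
Log2 ratio to the PD45 control for each of the 10 listings, as the ratio of mean signals (filled) and as the authors' deposited fold change (open). All 4 open circles for GW8510 lie to the right of the filled ones, so that CDKN2C reads 1.02 against 0.79 and CDK19 -0.86 against -1.05.

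Composition of the transcripts differed between the genes listed higher and lower with GW8510, and GC content did so with siSRC4 as well. The longest coding transcript (GENCODE release 29) had a median GC content of 55.7% and length of 2678 bases for genes listed higher, and of 41.7% and 4522 bases for those lower. CDKN2C at 58.1% and CCND3 at 56.2% lay near the first, CDK19 at 42.4% and 6246 bases near the second, and CCND2, higher with GW8510, had 45.5% and 6480 bases. With siSRC2 the median length was 5163 bases for genes listed higher and 2581 for those lower, and CDK14 had 5163 and CDKN3 1070. CDK14 is itself among the 173 genes listed higher, so that median may be its own length. Median GC content there was 47.8% for genes listed higher and 53.2% for those lower, while CDK14 had 40.2% and CDKN3 43.9%. With siSRC4 the median GC content was 56.0% for genes listed higher and 41.3% for those lower, at lengths of 3550 and 3812 bases. At PD30 the median GC content was 49.8% for genes listed higher and 48.0% for those lower. The part of GC content and length in these results was not tested.

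For each member the most similar profiles were sought among genes listed in the same tables, as the smallest root mean square difference of log2(signal + 1) from the control mean. Nearest to CDKN2C over 9 libraries, of 526 genes, were the mitotic genes CCNB1, KIFC1 and CEP55, with differences of 0.15 to 0.18. CCND2 was nearest to H2BC11, a histone gene (0.14), followed by the unnamed genes ENSG00000288781 and ENSG00000231918. H2BC11 belongs to a family of near-identical genes and its level is uncertain; it stood at 6.43 at PD30, 26.2 in the control and 38.5 with GW8510. CDKN3 had no close match among 144 genes (MCUB, CKS2 and TCF19, 0.58 to 0.71). CDK14 was nearest to TPM4, a tropomyosin gene (0.12), NOLC1 and GANAB. In the GW8510 libraries and the control alone, with 1624 genes to compare, CCND3 was nearest to ENDOG, CAPN1 and VARS1 (0.04 to 0.05) and CDK19 to RICTOR, GABRA2 and EFR3A (0.05). These distances describe 6 or 9 libraries that share a control.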

How the data were processed

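RNA sequencing of 15 libraries (5 groups of 3) was analysed from 4 deposited tables, each comparing a group with the PD45 control. Libraries were mapped to groups by the library names in the columns, also where the title of a mean column differs: the table titled siSRC2 holds the siSRC4 libraries, and that titled siSRC the siSRC2 libraries. Per the submitters' processing notes, CASAVA, HISAT2, StringTie, RSEM, DESeq2 and edgeR were used, in roles not given in the sources used here; the build named there, GRCm38, is a mouse build, while the identifiers are human. Per the file headers, the deposited tables hold the authors' fold ratio, log2 fold change, p-value, adjusted p-value and a normalized signal per library. Signal has no stated unit, and depth is unknown, so no counting interval is given.

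Python 3.11.15 with pandas 2.3.3 and numpy 2.4.6 gave the group means, their SD and the signal ratios. The number of genes tested was taken from the ratio of adjusted p to p at the smallest p. Groups other than the control were compared directly where a member is in both tables, with limma 3.58.1 (R 4.3.3, mean-variance trend) on log2(signal + 1), mean signal of at least 1, Benjamini-Hochberg adjusted over the genes in both tables; the fit was tested on simulated data. That test is conditional on both listings. Whether replicates are separate cultures is not in the labels: p-values reflect library-to-library spread alone, possibly technical. The members and the 12 lists were chosen with earlier results of these data known. From each list, values are given for the members and at most 4 genes with the largest absolute log2 ratio (higher mean at least 1). The 3 most similar genes are named for each member, and SRC as a check of the knockdown. SRC libraries overlapped between siSRC2 and siSRC4, so SRC cannot tell these groups apart. CKS2 was named beside CDKN3 after its values were seen. Alternatives were pseudocount, filter, trend, scale, control libraries in the fit, a replicate block and leaving out each library.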

Additional observations from a re-analysis of the deposited data

Results flagged for a closer look

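CCND2 and CDKN3 moved in opposite directions against the same control. CCND2 was higher in all 3 GW8510 libraries and lower in all 3 PD30 libraries than in any control library, and GW8510 minus PD30 came to 2.35 on the log2(signal + 1) scale. CDKN3 was higher in all 3 PD30 libraries and lower in all 3 siSRC2 libraries than in any control library, and siSRC2 minus PD30 came to -3.02. The listings that put the genes in both tables fix the direction of these differences, so nothing is read from their p in the direct fit (limma, adjusted p = 5.43e-08 and 4.90e-09).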

How the results depend on the processing

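The 10 log2 ratios of the members against the control kept their sign under all 110 alternatives, and 104 moved them by less than 1 SD. In all 10 the libraries did not overlap the control, so medians, pseudocounts and leaving out a library could not turn the sign. The authors' fold change is what put each gene in its table. Nothing is therefore read from the kept signs. On log2(signal + 1), CDKN2C at PD30 came to 2.30 and CCND2 to -1.82. By the authors' deposited table, the GW8510 values were 1.02 for CDKN2C, 0.74 for CCND2 and 0.71 for CCND3, and centring on the authors' scale gave 0.68 for CCND3. At 2-fold by the authors, list genes fell to 3 lower for PD30, 2 higher and 1 lower for GW8510, 0 higher and 1 lower for siSRC2, and 0 higher and 1 lower for siSRC4. Of list genes with a mean of at least 1, 0 were higher for siSRC4. Leaving out 1 library gave -1.78 to -1.66 for CDKN2C (GW8510 minus PD30) and -0.142 to 0.0628 for CDK14 (siSRC2 minus PD30), whose sign turned without PD30 replicate 3, with no call either way. With a replicate block, CDKN2C was at -1.73 (limma, adjusted p = 1.23e-05) and the genes passing for GW8510 minus PD30 went from 125 higher and 215 lower to 126 and 218, and for siSRC2 minus PD30 from 45 and 45 to 45 and 42. Same-numbered libraries correlated in their deviations at 0.05 to 0.14 for PD30 with GW8510 and at -0.14 to 0.17 for PD30 with siSRC2, and not every library correlated best with its own number, so the numbers were not taken to pair the samples. Unknown depth limits what can be said of genes with low signal.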
